A study of Mus musculus with 112 samples.

Results

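Fgfrl1, 3 fibroblast growth factor (FGF) receptor genes and 6 FGF ligand genes were followed across the cerebral cortex of 7 mouse strains on 2 diets. The members were Fgfrl1, Fgfr1, Fgfr2, Fgfr3, Fgf1, Fgf2, Fgf9, Fgf12, Fgf13 and Fgf14. Each was taken as the probe set that the platform annotation assigns to that symbol alone, and 10 of 10 were found, with 1 probe set each, among 19938 genes. Fgfrl1 was included because the study had listed it from these same arrays by its difference between calorie restricted (CR) and control mice. Its values in that comparison chose it, so they are given as a description without a test. The other 9 genes were added as its receptor and ligand family.

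The mice were males, kept 1 to a cage from an age of 6 weeks on 84 kcal per week, and at 8 weeks they stayed on the control diet or were moved to CR. At 22 weeks, after a night of fasting, cortex was taken, and each of the 112 mice gave 1 array, 8 per strain and diet. C57BL6/J, C3H/HeJ and their hybrid B6C3F1/J were studied beside the inbred CBA/J, DBA/2J, 129S1/SvImJ and Balbc/J. By the study's methods the food given was not equal in every strain: Balbc/J mice received more on both diets, and the CR ration of 129S1/SvImJ and C57BL6/J was lowered further partway. All values are log2 RMA signal, a microarray brightness on a log2 scale, so that a difference of 1 is a doubling. Levels were not compared between genes, because each gene was read by different probes.

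FGFs are secreted or intracellular proteins of one structural family. Secreted FGFs bind receptor tyrosine kinases together with heparan sulphate chains, and the activated receptor signals through adaptor proteins to the MAP kinase and phospholipase C pathways. FGFRL1 has an extracellular part like that of the other FGF receptors but no tyrosine kinase domain. In the brain FGFR1 is found on neurons and progenitors, FGFR2 on oligodendrocytes and astrocytes, and FGFR3 mainly on astrocytes. FGF1, FGF2 and FGF9 act on these receptors, whereas FGF12, FGF13 and FGF14 stay inside neurons and bind voltage-gated sodium channels.

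On the mouse assembly GRCm38.p6, Fgfrl1 lies at chr5:108694229-108706950, Fgfr1 at chr8:25518759-25575718, Fgfr2 at chr7:130162451-130266808 and Fgfr3 at chr5:33721724-33737068. The 250 bases upstream of the annotated start are shown for Fgfrl1, the gene chosen by its diet difference, and for Fgfr3, the receptor gene on the same chromosome. Capitals mark 2 motifs, the E-box CACGTG, bound by basic helix-loop-helix factors, and the GC box, bound by factors of the Sp family, which reads GGGCGG on one strand and hence, when its site faces the opposite way, CCGCCC. Both sequences are from RefSeq and are written 5′ to 3′ on the plus strand, which is the strand of both genes.
Fgfrl1, chr5:108693979-108694228: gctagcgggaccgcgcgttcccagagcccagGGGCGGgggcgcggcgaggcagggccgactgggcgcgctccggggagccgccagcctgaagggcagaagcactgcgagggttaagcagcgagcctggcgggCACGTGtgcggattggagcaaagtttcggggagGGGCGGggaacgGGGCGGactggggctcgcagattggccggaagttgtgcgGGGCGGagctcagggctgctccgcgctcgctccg
Fgfr3, chr5:33721474-33721723: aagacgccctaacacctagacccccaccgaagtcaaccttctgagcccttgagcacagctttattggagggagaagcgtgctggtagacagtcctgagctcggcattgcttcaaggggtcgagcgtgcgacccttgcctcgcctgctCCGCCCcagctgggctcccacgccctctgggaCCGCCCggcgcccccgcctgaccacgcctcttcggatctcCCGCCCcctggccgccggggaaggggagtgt

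The Fgfrl1 window held 1 E-box, whose first base lay 118 bases before the start, and 4 GC boxes. The Fgfr3 window held 0 E-boxes and 3 GC boxes. Of 32851 windows of this length, 6.02% held the E-box and 32.7% the GC box on either strand. G and C made up 73.6% of the Fgfrl1 window and 66.8% of the Fgfr3 window, against a median of 52.4% over all windows. The TATA box TATAAA, present in 12.4% of windows, was absent from both. Another RefSeq window of Fgfr3, chr5:33722056-33722305, is not printed. It held 0 E-boxes, 2 GC boxes and 0 TATA boxes, with 72.8% G and C. RefSeq windows were matched for 8 of the 10 genes, and none of the other 7 genes with a window held an E-box there. These matches describe letters and not binding.

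A pair of control arrays stood apart before any comparison. In replicate 6 of the C57BL6/J controls and replicate 8 of the B6C3F1/J controls, a list of 16 cerebellar genes lay 3.65 and 3.59 log2 units above the other 7 arrays of their groups, and 9 cortical excitatory neuron genes differed from those arrays by -1.79 and -1.62. The cerebellum is not part of the cortex. The cerebellar levels of DBA/2J control replicate 8 were higher by 1.34 and those of CBA/J CR replicate 6 by 1.06. Excitatory neuron genes, which define cortex, lay between 9.59 and 10.08 in the other 54 control arrays and between 9.22 and 10.05 in the CR arrays. Results are given over 112 arrays, and over 110 arrays without the pair wherever this changes a call, a direction or a size by over 1.5 times.

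Several FGF genes were among those displaced in the 2 arrays. Fgf13, which encodes an intracellular FGF of forebrain neurons, differed from the other 7 arrays of its group by -2.45 in C57BL6/J control replicate 6 and by -2.04 in B6C3F1/J control replicate 8. Fgfr1 was higher by 1.04 and 1.15, Fgf1 by 0.82 and 0.85, Fgf9 by 0.68 and 0.89, and Fgf14, an intracellular FGF whose mutation causes a cerebellar ataxia in people, by 0.62 and 0.58. Fgf12 differed by -0.63 and -0.34, Fgfr3 by -0.54 and -0.31, Fgf2 by -0.26 and -0.25, and Fgfrl1 by -0.19 and -0.24. Fgfr2 differed by 0.23 and 0.052. In DBA/2J control replicate 8, Fgfr1 was higher by 0.72 while Fgf13 differed by -0.099 and Fgf14 by -0.053.

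**Figure D1:**
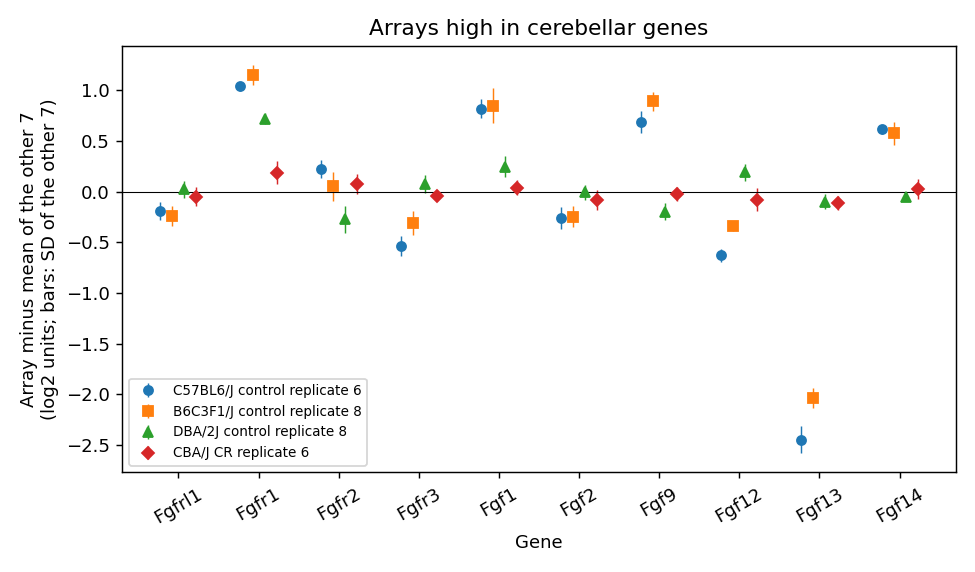
Difference of each of 4 arrays high in cerebellar genes from the mean of the other 7 arrays of its strain and diet group (y axis, log2 units) for the 10 genes (x axis), with bars for the SD of those 7 arrays. In the C57BL6/J array and the B6C3F1/J array, both from control mice, Fgf13 sits at -2.45 and -2.04 and Fgfr1 at 1.04 and 1.15, while Fgfrl1 sits at -0.19 and -0.24.

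Fgfrl1 was lower in CR than in control mice in 6 of 7 strains. Its mean over strains was 8.39 in control and 8.30 in CR mice, a difference of -0.091 ± 0.017 log2 units (SE, with n = 8 in each of the 14 groups), or -6.14%. Without the 2 arrays high in cerebellar genes the difference was -0.099 ± 0.016, and Fgfrl1 was lower in 7 of 7 strains. Because whole cortex was measured, fewer cells that express a gene and less of its RNA per cell cannot be told apart.

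In Balbc/J, Fgfrl1 signal ran from 8.35 through a median of 8.44 to 8.52 in the control mice and from 8.24 through 8.29 to 8.34 in the CR mice. The lowest control mouse lay above the highest CR mouse, so the groups did not overlap, and 0.0251% of all genes were separated in this direction in Balbc/J. The mean difference there was -0.15. In the other strains the groups overlapped.

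DBA/2J control mice had Fgfrl1 signals of 8.34 to 8.56 (median 8.47), and DBA/2J CR mice 8.24 to 8.41 (median 8.35). CBA/J control mice spanned 8.36 to 8.57 (median 8.48) and CBA/J CR mice 8.26 to 8.52 (median 8.33). The CR median of CBA/J lay below its lowest control mouse and that of DBA/2J just above its lowest one, and the mean differences were -0.12 and -0.13. In C57BL6/J the control mice spanned 8.19 to 8.50 (median 8.34) and the CR mice 8.06 to 8.44 (median 8.19), a mean difference of -0.13, which was -0.16 without control replicate 6. For 129S1/SvImJ the ranges were 8.06 to 8.43 (median 8.30) in control and 8.08 to 8.38 (median 8.22) in CR mice, and the lowest single mouse was on the control diet. The mean difference in 129S1/SvImJ was -0.079.

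C3H/HeJ and its hybrid B6C3F1/J had the smallest differences. C3H/HeJ control mice lay between 8.28 and 8.37 (median 8.35) and its CR mice between 8.16 and 8.37 (median 8.31), a difference of -0.041. B6C3F1/J was the exception in direction, with control mice between 8.17 and 8.53 (median 8.41), CR mice between 8.27 and 8.49 (median 8.39) and a difference of 0.013. Without control replicate 8, the B6C3F1/J array high in cerebellar genes, the difference was -0.018. No test is given of whether the Fgfrl1 difference varied between strains, because these same differences chose the gene.

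**Figure D2:**
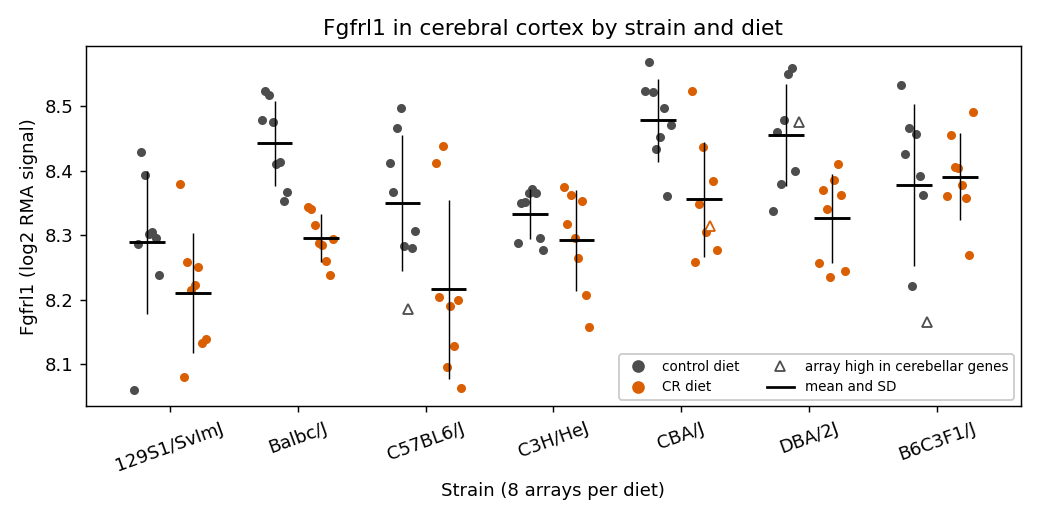
Fgfrl1 log2 RMA signal (y axis) in each of 112 arrays by strain (x axis) and diet, with black lines for the group mean and SD over 8 mice and open triangles for the 4 arrays high in cerebellar genes. The Balbc/J control mice, at 8.35 and above, lie over every Balbc/J CR mouse, at 8.34 and below, and the B6C3F1/J groups lie on top of each other.

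Of the 112 genes measured in 13 lists of cell type and region genes, 1 was called lower and 3 higher with CR across strains. Of all genes, 1.17% were called in each direction. The median of each array's mean level for 6 striatal genes was 10.33 in control and 10.50 in CR mice, and 0 of the 6 were called. In the other 12 lists the CR median minus the control median lay between -0.032 (oligodendrocyte precursors) and 0.047 (choroid plexus). Excitatory neurons had medians of 9.91 in control and 9.88 in CR mice, astrocytes 9.99 and 10.01, oligodendrocytes 9.66 and 9.70, and the cerebellar list 7.06 and 7.09. Within groups, over 110 arrays, Fgfrl1 correlated with the levels of 13 such lists at r between -0.20 (striatum) and 0.24 (excitatory neurons). The points share array, dissection and normalization, and the correlations are a description. The part of the striatal list in the Fgfrl1 difference was not tested.

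None of the other 9 genes was called across strains when all 112 arrays were used, at an adjusted p under 0.05 from limma over all genes. Of all genes, 1.17% were called lower in CR mice and 1.17% were called higher. Fgfrl1 was chosen by this contrast and is left out of the counts that follow. Of the other 9 genes 7 had a lower mean in CR mice, against 49.3% of all genes, and their median difference was -0.031 against 0.00054 over all genes. Over 110 arrays the median of the 9 was -0.020. Without the 2 arrays high in cerebellar genes, 2.61% of all genes were called lower and 1.75% higher, and Fgfr3 and Fgf12 were called lower.

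Fgfr3, the receptor gene of astrocytes, had mean signals of 9.37 in control and 9.32 in CR mice. The difference was -0.059 ± 0.020 (SE, limma adjusted p = 0.105) and was negative in 5 of 7 strains. Without the 2 arrays it was -0.074 ± 0.018 (adjusted p = 0.00534). CBA/J control mice lay between 9.25 and 9.53 (median 9.42) and CBA/J CR mice between 9.18 and 9.34 (median 9.26), and 3 of 8 CR mice lay below the lowest control mouse. In DBA/2J the order was the other way, with control mice between 9.12 and 9.37 (median 9.33) and CR mice between 9.30 and 9.42 (median 9.38). Over 110 arrays the differences ran from -0.16 in C57BL6/J through 0.0082 in Balbc/J to 0.072 in DBA/2J. The test of strain by diet gave Fgfr3 an unadjusted p of 0.00522 and an adjusted p of 0.382 in limma over these arrays, so a difference between strains was not called. Of 10 astrocyte genes, 1 was called lower and 1 higher with CR over 112 arrays, against 1.17% of all genes in each direction. Within groups Fgfr3 and the astrocyte list correlated at r = 0.36 over 110 arrays, and the part of astrocytes in the Fgfr3 difference was not tested.

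Fgf12, an intracellular FGF that binds neuronal sodium channels, was lower on average in CR mice of 7 of 7 strains. Its mean was 10.73 in control and 10.67 in CR mice, a difference of -0.063 ± 0.021 (limma adjusted p = 0.0884). The difference was -0.080 ± 0.017 and was called without the 2 arrays (adjusted p = 0.0016). Balbc/J had the largest difference over 112 arrays, with control mice between 10.71 and 11.01 (median 10.89) and CR mice between 10.63 and 10.85 (median 10.75). The highest CR mice there reached into the control range. C3H/HeJ had the smallest, at -0.022. Leaving out C57BL6/J control replicate 6 alone gave -0.074 (adjusted p = 0.00928), and leaving out B6C3F1/J control replicate 8 alone gave -0.069 (adjusted p = 0.0451).

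Fgf2, a ligand of astrocytes and of the extracellular matrix, was higher on average in CR mice of 7 of 7 strains without passing the test. Its means were 7.26 in control and 7.33 in CR mice, and the difference was 0.062 ± 0.020 (limma adjusted p = 0.0741), or 0.053 ± 0.019 without the 2 arrays (adjusted p = 0.0989). B6C3F1/J control mice lay between 7.00 and 7.40 (median 7.24) and its CR mice between 7.19 and 7.49 (median 7.35). C57BL6/J control mice lay between 7.07 and 7.46 (median 7.29) and its CR mice between 7.23 and 7.61 (median 7.43). The diet groups overlapped in both strains, and CBA/J had the smallest difference, at 0.0094.

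For the kinase receptor genes Fgfr1 and Fgfr2 the differences were -0.059 ± 0.036 (limma adjusted p = 0.473) and -0.024 ± 0.024 (adjusted p = 0.725). Without the 2 displaced control arrays the Fgfr1 value was -0.020 ± 0.023. The 95% confidence interval of Fgfr2 ran from -0.072 to 0.023. Fgf9, a neuronal ligand that acts on glia, differed by -0.036 over 112 arrays and by -0.0079 over 110. Fgf14 differed by -0.031 and -0.0095. Fgf1 changed direction, from -0.020 to 0.0095, and Fgf13 from 0.054 ± 0.059 to -0.026 ± 0.020. Intervals over 110 arrays for Fgf1, Fgf9, Fgf13 and Fgf14 lay between -0.065 and 0.060.

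**Figure D3:**
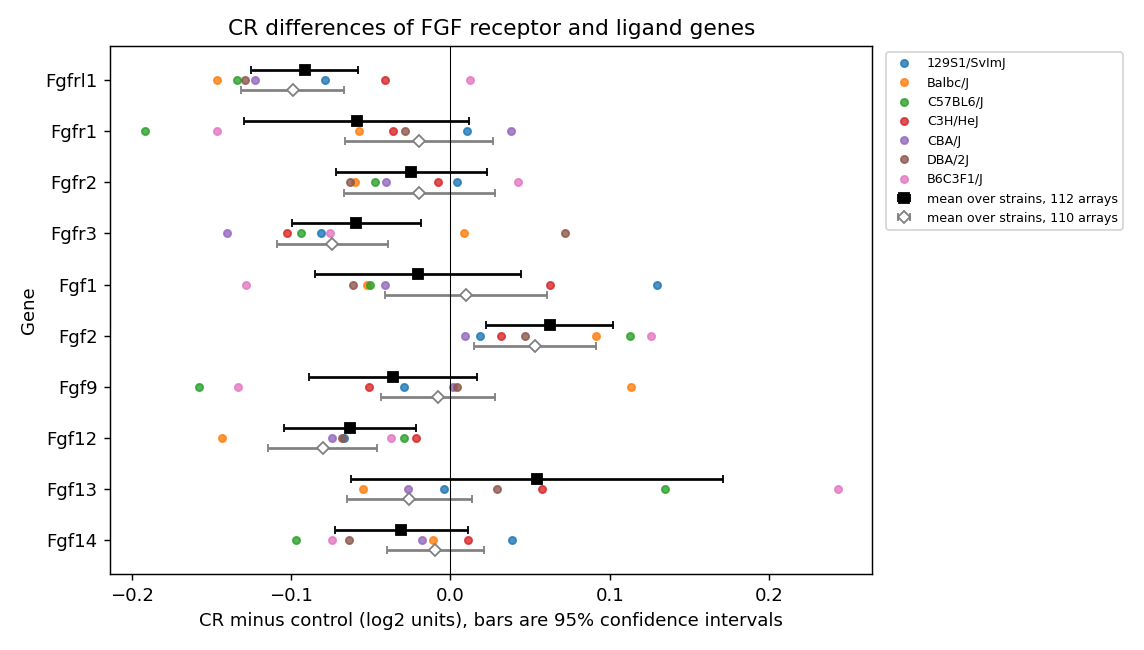
CR minus control difference (x axis, log2 units) of the 10 genes (y axis): coloured dots are the 7 strains over 112 arrays, black squares the mean over strains in 112 arrays, and open diamonds the mean in 110 arrays without the 2 high in cerebellar genes, with 95% confidence intervals. The interval of Fgf13 is the widest over 112 arrays, from -0.063 to 0.17, and narrows to -0.065 to 0.013 over 110.

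Within single strains, none of the other 9 genes was called. Calls over all genes made up 0.00502% in 129S1/SvImJ, 0% in Balbc/J, 0.0853% in C57BL6/J, 0% in C3H/HeJ, 0.1% in CBA/J, 0% in DBA/2J and 0% in B6C3F1/J. At an unadjusted p under 0.05 in limma, 6 of 63 gene and strain combinations passed, against 6.76% of the combinations over all genes. They were Fgf12 in Balbc/J, Fgf2, Fgf9 and Fgfr1 in C57BL6/J, Fgfr3 in CBA/J and Fgf2 in B6C3F1/J. Over 110 arrays 8 of 63 passed, against 8.2% over all genes, and again none was called. Fgfr1 and Fgf9 in C57BL6/J no longer passed, their differences going from -0.19 to -0.062 and from -0.16 to -0.072, nor did Fgf2 in C57BL6/J (0.080) and B6C3F1/J (0.095). Newly past that level were Fgfr3 in C57BL6/J (-0.16), C3H/HeJ (-0.10) and B6C3F1/J (-0.11), Fgf9 in Balbc/J (0.11), and Fgf12 and Fgf13 in C57BL6/J (-0.11 and -0.17). By the methods' t-test at their threshold, an unadjusted p under 0.01, 2 of 63 combinations passed, 1 of Fgfr3 and 1 of Fgf12, against 1.75% over all genes, and 0 remained after Benjamini-Hochberg adjustment. The strain by diet interaction called 0.0401% of all genes and 0 of the other 9. Of these 9, 0 had an unadjusted p under 0.05 in limma over 112 arrays, against 1, Fgfr3, over 110.

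Levels of most of the 10 genes differed between strains. Among control mice 65.4% of all genes differed between strains, and 9 of the 10 did, Fgf13 being the exception (limma moderated F, adjusted p = 0.48). Without the 2 arrays Fgf13 differed too (adjusted p = 3.22e-05), while the share of all genes was 71.7%. In CR mice 56.8% of all genes differed, and Fgfrl1, Fgfr1, Fgfr2, Fgfr3, Fgf2 and Fgf9 did, while Fgf1, Fgf12, Fgf13 and Fgf14 did not pass. Without the 2 arrays, which are from control mice and act here through the shared estimate of spread, Fgf12 (limma adjusted p = 0.0338), Fgf13 (2.95e-06) and Fgf14 (0.00122) passed in CR mice too, as did 64.1% of all genes. Of all combinations of a gene and a pair of strains 35.3% were called, against 87 of 210 for the 10 genes. Over 110 arrays these were 39.5% and 115 of 210.

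The kinase receptor genes had wider strain ranges than Fgfrl1. Strain level, the mean of the control and CR group means, spanned 0.46 log2 units in Fgfr1, 0.37 in Fgfr2 and 0.31 in Fgfr3, but 0.17 in Fgfrl1. The range of Fgfr1 exceeded that of 90.3% of all genes, and that of Fgfrl1 exceeded 24.5%. Whether strain variants under the probes alter these signals was not tested.

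For Fgfrl1 the order was CBA/J (8.42 ± 0.078, SD within groups, n = 16), DBA/2J (8.39 ± 0.074), B6C3F1/J (8.38 ± 0.10), Balbc/J (8.37 ± 0.053), C3H/HeJ (8.31 ± 0.062), C57BL6/J (8.28 ± 0.12) and 129S1/SvImJ (8.25 ± 0.10). No neighbours in this order differed beyond their spread. CBA/J exceeded 129S1/SvImJ by 0.17 ± 0.032 (limma adjusted p = 6.94e-06 over all genes and pairs), and 10 of 21 pairs were called in all.

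Fgfr1 was highest in B6C3F1/J (9.47 ± 0.30), followed by 129S1/SvImJ (9.29), CBA/J (9.27), DBA/2J (9.22), C3H/HeJ (9.11), Balbc/J (9.04) and C57BL6/J (9.01). The first step in that order, 0.18 ± 0.066, was called (limma adjusted p = 0.0273), and 0.11 remained without the 2 arrays (adjusted p = 0.0452). The other neighbours did not differ beyond their spread over 112 arrays, but over 110 the step from DBA/2J to C3H/HeJ, 0.11, was called (adjusted p = 0.0279). These 110 arrays still held DBA/2J control replicate 8, high in cerebellar genes, whose Fgfr1 was 0.72 above the other 7 of its group. The DBA/2J control mean was 9.24 with that array and 9.15 without it, and the step without it was not tested.

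Fgfr2 ran from C57BL6/J (9.19 ± 0.095) through B6C3F1/J (9.11), C3H/HeJ (9.03), Balbc/J (9.00), CBA/J (8.97) and DBA/2J (8.88) to 129S1/SvImJ (8.82 ± 0.13), and no neighbours differed beyond their spread. C57BL6/J exceeded 129S1/SvImJ by 0.37 ± 0.045 (limma adjusted p = 1.79e-11). C57BL6/J also had the highest median levels of 9 oligodendrocyte genes, 9.94 in control and 10.05 in CR mice, against medians of 9.55 to 9.73 in the groups of other strains. Within groups Fgfr2 correlated with that list at r = 0.67 over 110 arrays. The part of oligodendrocytes in the strain difference was not tested.

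Fgfr3 was lowest in 129S1/SvImJ, at 9.16 ± 0.096. That was 0.16 ± 0.038 below B6C3F1/J, the next strain (limma adjusted p = 0.000334), and below every other strain in a called pair. C57BL6/J was highest at 9.47, with Balbc/J at 9.44, C3H/HeJ at 9.36, DBA/2J at 9.34, CBA/J at 9.33 and B6C3F1/J at 9.32 between them. Balbc/J exceeded C3H/HeJ, its neighbour, by 0.082, which was called over 110 arrays (limma adjusted p = 0.0352) but not over 112 (0.0835). The astrocyte genes were also lowest in 129S1/SvImJ, with medians of 9.77 in control and 9.84 in CR mice, against 9.88 to 10.17 in the groups of other strains. Whether this accounts for the Fgfr3 level was not tested.

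Among the ligands, Fgf9 was highest in C57BL6/J (8.27 ± 0.20) by 0.15 ± 0.050 over C3H/HeJ (limma adjusted p = 0.011) and lowest in 129S1/SvImJ (7.94 ± 0.090). Fgf2 ran from 7.41 in Balbc/J to 7.15 in CBA/J, and 9 of 21 pairs were called over 112 arrays and 11 over 110. Fgf1 and Fgf12 were also highest in Balbc/J, at 9.27 and 10.81, with 4 and 7 called pairs over 112 arrays and 8 and 10 over 110. Fgf14 was lowest in CBA/J, at 10.50, with 6 called pairs, and 8 over 110 arrays. For Fgf13, 0 of 21 pairs were called over 112 arrays and 12 over 110, where 129S1/SvImJ was highest and Balbc/J lowest, at 9.68 and 9.44.

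**Figure D4:**
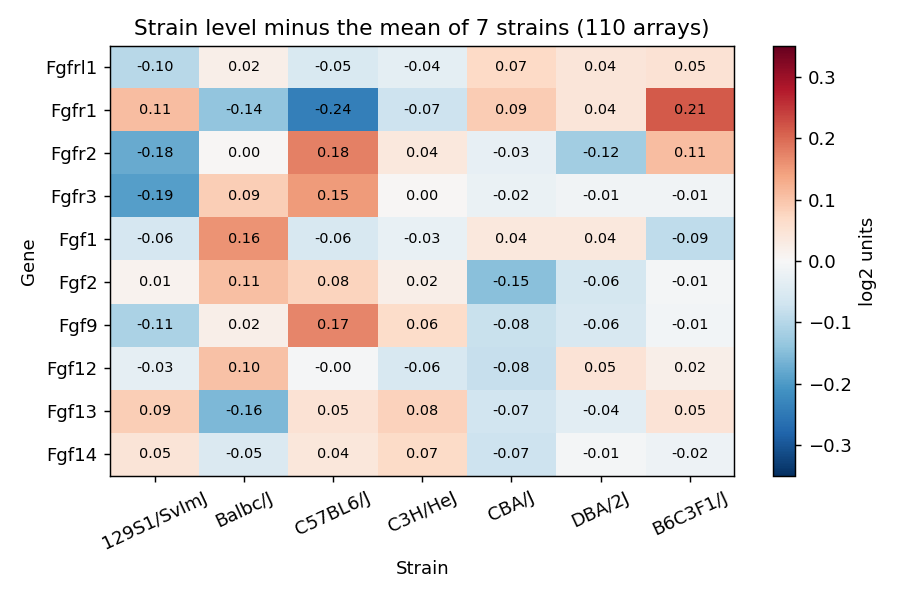
Strain level minus the mean of the 7 strains (colour and printed value, log2 units) for the 10 genes (rows) in the 7 strains (columns), over 110 arrays. Fgfr1 spans -0.24 in C57BL6/J to 0.21 in B6C3F1/J, and Fgfr2 and Fgfr3 are lowest in 129S1/SvImJ, at -0.18 and -0.19.

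The hybrid B6C3F1/J did not lie midway between its parental strains for Fgfr1. Its Fgfr1 level was 9.47 against 9.01 in C57BL6/J and 9.11 in C3H/HeJ, a difference from their mean of 0.41 ± 0.058 (limma adjusted p = 6.57e-09). Over 110 arrays it was 0.37 ± 0.039. In CR mice, where no array of these 3 strains was among the 4 high in cerebellar genes, the hybrid lay between 9.27 and 9.57 and the parents between 8.79 and 9.36, a difference of 0.39 (adjusted p = 0.00012). In control mice without the 2 arrays the hybrid lay between 9.26 and 9.52 and the parents between 8.92 and 9.24. The 7 remaining hybrid control mice lay above the 15 parental ones, whereas the ranges of the CR mice overlapped. The share of all genes separated in this way is not given. A hybrid difference was called for 36.4% of all genes over 110 arrays.

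Cerebellar gene levels were 7.11 at the median in B6C3F1/J CR mice, 7.02 in C57BL6/J CR mice and 7.07 in C3H/HeJ CR mice. In control mice, with the arrays high in cerebellar genes included, the medians were 7.18, 6.96 and 7.03 in the same order. The hybrid median thus lay above both parental medians on each diet, and the gap was wider in control mice. Within groups Fgfr1 correlated with that list at r = 0.62 over 110 arrays and 0.40 over 108, without all 4 arrays. Their part in the hybrid difference was not tested.

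Fgfrl1 was also above the parental mean in the hybrid, at 8.38 against 8.28 in C57BL6/J and 8.31 in C3H/HeJ. The difference was 0.086 ± 0.027 (limma adjusted p = 0.0102). It was 0.036 in control mice and 0.14 in CR mice. Without the 2 arrays it was 0.055 in control mice. These values by diet are a description without a test, because the gap between them is made of Fgfrl1 diet differences, and such differences chose the gene. Fgfr3 was below, at 9.32 against 9.47 and 9.36, by -0.090 ± 0.033 (adjusted p = 0.0279), but it passed in neither diet alone. Called hybrid differences made up 31.9% of all genes, near the 3 of 10 here. Over 110 arrays Fgf9 (-0.13, adjusted p = 0.000337) and Fgf14 (-0.071, adjusted p = 0.0209) were called as well, 5 of 10 against 36.4% of all genes.

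**Figure D5:**
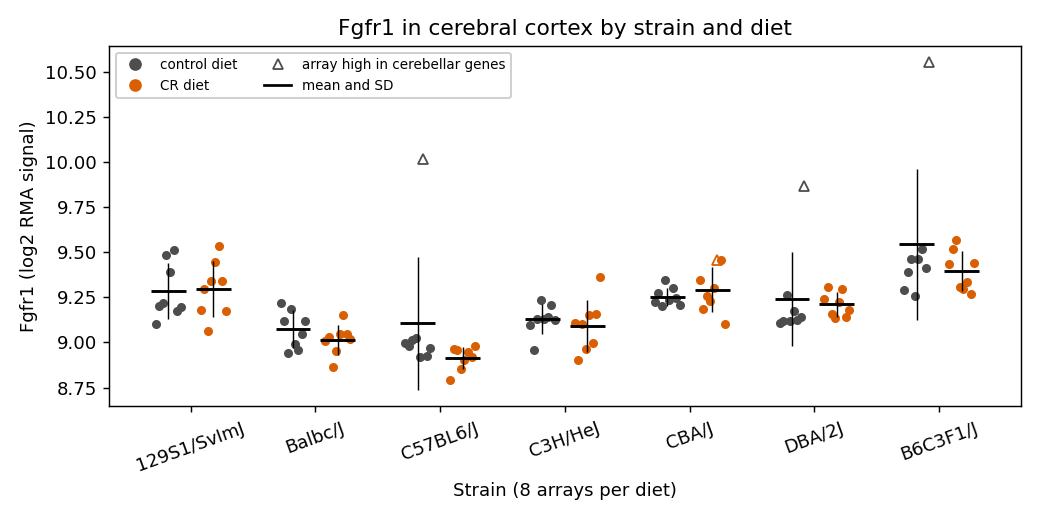
Fgfr1 log2 RMA signal (y axis) in each of 112 arrays by strain (x axis) and diet, with black lines for the group mean and SD over 8 mice and open triangles for the 4 arrays high in cerebellar genes. B6C3F1/J mice lie at 9.26 and above on both diets, and the control arrays at 10.02 in C57BL6/J, 9.87 in DBA/2J and 10.55 in B6C3F1/J stand clear of their groups.

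The rest of the pathway was read from lists of partners of the 10 genes. Of 19 co-receptors and binding partners measured, 0 were called higher and 2 lower with CR across strains. Flrt1, which encodes a membrane protein that binds FGF receptors, fell by 0.078 ± 0.018 log2 units (limma adjusted p = 0.0054, lower in 6 of 7 strains), and by 0.090 without the 2 arrays (adjusted p = 8.21e-05). Sdc1, a heparan sulphate proteoglycan of the cell surface, fell by 0.097 ± 0.028 (adjusted p = 0.0372, lower in 7 of 7 strains) and differed by -0.081 without the 2 arrays, where it just missed the threshold (adjusted p = 0.0517). Flrt3, a relative of Flrt1, differed by 0.080 (adjusted p = 0.0737).

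In the remaining lists 0 genes were called in either direction, over 112 or 110 arrays. These were 17 genes for other FGF ligands and for the receptor Fgfr4 (median difference -0.0087) and 16 of 17 heparan sulphate enzymes (-0.0021). They also held 13 of 19 signal adaptors (0.00051) and 15 feedback inhibitors and induced genes (-0.00096). The last list held 7 genes for subunits of sodium channels, the channels that the intracellular FGFs bind (0.0019). The leading gene of each list by p was as follows. The ligand Fgf10 differed by -0.045 (limma adjusted p = 0.521), and Hs3st1, a heparan sulphate sulphotransferase, by -0.074 (adjusted p = 0.299), or -0.038 over 110 arrays. Crk, an adaptor, differed by 0.037 (adjusted p = 0.216), the feedback inhibitor Spred1 by 0.060 (adjusted p = 0.246), and Scn8a, a sodium channel of the axon initial segment, by -0.040 (adjusted p = 0.306).

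Genes whose array-to-array pattern was most like that of a member were found by Pearson's r of the deviations from group means over 110 arrays, as a description. They share array, dissection and normalization. For Fgfrl1 they were Scrib (r = 0.55), Dact3 (0.49) and Dvl1 (0.49). For Fgfr1 they were C1ql1 (0.68), Maml2 (0.66) and Timp3 (0.65). Fgfr2 was nearest to Ugt8a (0.75), an enzyme of myelin lipid synthesis that is on the oligodendrocyte list, Slc12a2 (0.74) and Myo1d (0.72). Fgfr3 was nearest to Smox (0.61), Htra1 (0.56) and Mertk (0.54).

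For the ligands the values were similar in size. Fgf1 was nearest to Zfhx4 (0.76), Fgf2 to Asnsd1 (0.51) and Fgf9 to Dph3 (0.65). The intracellular FGFs were nearest to Fam155a (Fgf12, 0.67), Ak5 (Fgf13, 0.72) and Adam23 (Fgf14, 0.67). Between the members themselves the highest r were 0.38 for Fgf12 with Fgf13 and 0.38 for Fgfr1 with Fgf1, and Fgfrl1 correlated with the other 9 between -0.22 and 0.13. Fgf1 also correlated with 6 striatal genes at 0.62, and the array levels of those genes ran from 8.16 to 11.30, so that the arrays differed widely in this list.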

How the data were processed

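Total RNA, extracted with Trizol, was measured on Mouse Gene ST arrays from Affymetrix, and the authors deposited log2 values from gene-level RMA-Sketch in Affymetrix Expression Console. For neither tool do the sources used here give a version. RMA forces the arrays of a run onto a shared distribution, which hides any change common to all genes. Whether all 112 arrays went through 1 run is not given in the sources used here. The part of run or array batch in the strain differences was not tested. The medians of the arrays were 7.14 to 7.26, and their number limits the precision. Of 35556 probe sets, 21789 had 1 gene symbol. A gene with several was represented by the one with the highest mean signal, leaving 19938 genes and no filter on low signal.

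A model with 14 group means was fitted with limma (version 3.58.1, R 4.3.3), after being tested on simulated data. Tests were two-sided, with Benjamini-Hochberg adjustment over all genes (for strain pairs, over all genes and 21 pairs) and a threshold of 0.05. Partner genes were named within each list by call and then by p, at most 4 per list, and likeness by the 3 highest r. Members and gene lists were chosen with earlier results of these data known, and motifs after the values were seen. The alternatives changed 1 choice each: normalization, filter, variance model, weights, arrays or strains left out, probe sets, block or covariate.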

Additional observations from a re-analysis of the deposited data

Results flagged for a closer look

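In groups of 8 mice, a single array was singled out when its gap to the nearest array was large for the range of its group, which chance gives in about 5% of groups. This occurred in 19 of 140 gene and group combinations, and 13 of them were in the 2 arrays highest in cerebellar genes, from a C57BL6/J and a B6C3F1/J control mouse (replicates 6 and 8). There, Fgfr1 stood at 10.02 and 10.55, Fgf1 at 9.85 and 9.88, Fgf9 at 8.95 and 8.95, and Fgf14 at 11.24 and 11.13, above the rest of their groups. Fgf12 stood at 10.13 and 10.43 and Fgf13 at 7.28 and 7.61, below them, as did Fgfr3 at 9.05 in the C57BL6/J array. Fgfr1 was 9.87 in DBA/2J control replicate 8, also high in cerebellar genes.

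The other 5 were single arrays. Fgfr3 was 9.12 in DBA/2J control replicate 1, below the others, and 9.52 in B6C3F1/J CR replicate 1, above them. Fgf9 was 8.36 in C3H/HeJ control replicate 8 and Fgf12 10.84 in C3H/HeJ CR replicate 1, each the highest of its group. Fgf13 was 9.28 in Balbc/J control replicate 1, the lowest. Fgfrl1, Fgfr2 and Fgf2 had no such array.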

How the results depend on the processing

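Over 21 alternatives the Fgfrl1 difference between diets lay between -0.11 and -0.082. Of 57 results on single genes, 35 kept their direction and side of the threshold in all alternatives run. Members other than Fgfrl1 called across strains numbered 0 over 112 arrays (467 of all genes), 1 with quantile normalization (658), 1 among genes above the median gene (668), 3 with array weights (1193), 2 without the 2 arrays high in cerebellar genes (870), 2 without 4 such arrays (875), 2 with array quality as a covariate (450), 2 without C57BL6/J control replicate 6 alone (585) and 1 without B6C3F1/J control replicate 8 alone (447). With array weights, strain calls in CR mice went from 6 to 10 and hybrid calls from 3 to 6. Shares of all genes are not given for these calls or the next ones, except for the hybrid without the 2 arrays. Hybrid calls were 5 without the 2 arrays (36.4% of all genes), 5 without 4 arrays and 1 in control mice alone. The last alternative uses fewer mice, and for the others the cause was not tested.

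Among tested differences across strains and of the hybrid, directions reversed for Fgf1, Fgf13 and Fgfr2, none of them called. The Fgfrl1 difference in B6C3F1/J, given without a test, was -0.018 without the 2 arrays, without 4 and without B6C3F1/J control replicate 8 alone. The diet difference of Fgf1 was 0.026 (weights), 0.0095 (without 2 arrays), 0.013 (without 4) and 0.0068 (quality covariate), and that of Fgf13 -0.025, -0.026, -0.026 and -0.033 in the same order. Hybrid differences were 0.025 (quantile), 0.0032 (weights), 0.0027 (without C57BL6/J control replicate 6) and 0.031 (CR mice alone) for Fgfr2, 0.0077 (quantile), 0.0050 (without C57BL6/J control replicate 6) and 0.046 (control mice alone) for Fgf1, and 0.0032 (weights), 0.058 (without B6C3F1/J control replicate 8) and 0.0043 (CR mice alone) for Fgf13.

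Replicate numbers are shared by control and CR mice, and the labels do not say that a number marks a shared litter, batch or day. Of same-numbered pairs within a strain 31 of 56 deviated together at r over 0.1 (median r 0.11), against 113 of 392 differently numbered pairs (median r -0.0094), and 14 of 56 CR arrays correlated best with their own number, where 7 would without any tie. Same-numbered pairs thus passed more often, 55.4% against 28.8%, and the main tests take no account of this. Not every pair passed, and the mice were not treated as paired. With the replicate number as a block, 0 members were called within strains and 0 for the interaction. Strain differences were called for 9 and 6 members in control and CR mice and in 89 of 210 pairs, and hybrid differences for 3. The contrast across strains chose Fgfrl1 and is left out of these counts. Over all genes, 527 were called across strains with that block and 550 with 56 blocks, against 467 without. Shares of all genes for the other counts with that block are not given.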
